A study of Homo sapiens with 4 samples.

Results

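The miR-30 family was described here as the 5 mature guide strands miR-30a, miR-30b, miR-30c, miR-30d and miR-30e, taken by name from the 1733 miRNAs counted in each library. Small RNA was sequenced from Hep3B and Huh7, established human hepatoma lines (hepatocellular carcinoma, HCC), and from Hep3B-C and Huh7-C, the hepatic cancer stem cells (HCSCs) that the study cultured from each of them. The 4 populations had 1 library each, so no value below has a replicate, and a difference between 2 libraries cannot be told apart from a difference between 2 cultures of the same cells. How the HCSCs were enriched is not given in the sources used here. The question of the comparison was how HCSCs differ from the HCC cells from which they were derived.

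miRNAs are short RNAs that guide a silencing complex to messenger RNAs, mainly by pairing of the seed, bases 2 to 8 of the miRNA. One strand of the hairpin precursor, the guide, is usually kept, and the other, the passenger strand (marked with an asterisk), is usually degraded. The miR-30 family is broadly expressed in epithelial tissues, the liver included. It is known for targeting SNAI1, a transcription factor of the epithelial to mesenchymal transition, and BECN1, a gene of autophagy.

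The guide strands are shown because they share a seed, which is in capitals, and differ only behind it. The RefSeq table (GRCh38.p14) matched 3 of the 5 members, and miR-30b and miR-30d are named only.
hsa-miR-30a: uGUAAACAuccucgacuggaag
hsa-miR-30e: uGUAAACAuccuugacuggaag
hsa-miR-30c: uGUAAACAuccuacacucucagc
Of the 2370 mature miRNAs in that table, 3 held this seed, and they were these 3 members. Since the table lacks miR-30b and miR-30d, this count says nothing on their seed. Counted from 1 at the 5′ end, miR-30a and miR-30e differed at 1 of 22 positions, C13U, while miR-30c differed from each of them at 5. How reads with a mismatch were shared between miR-30a and miR-30e is not given in the sources used here.

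The passenger strands in the RefSeq table are shown because they fall into 2 seed groups, that of miR-30a* and miR-30e* and that of the 2 miR-30c strands. miR-30b* and miR-30d* are not in the table and are named only, so the seed counts do not cover them.
hsa-miR-30a*: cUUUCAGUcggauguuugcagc
hsa-miR-30e*: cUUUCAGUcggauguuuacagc
hsa-miR-30c-1*: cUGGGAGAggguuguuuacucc
hsa-miR-30c-2*: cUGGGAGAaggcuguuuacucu
miR-30a* and miR-30e* differed at 1 position, G18A, and shared a seed that 2 of the 2370 mature miRNAs held. The seed of miR-30c-1* and miR-30c-2* was held by 3 of the 2370, the third being miR-6788-5p. miR-30c-1* and miR-30c-2* differed at 3 of 22 positions, so passenger reads of the 2 miR-30c hairpins can be told apart, although both hairpins give the same guide.

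The 6 hairpins lie in 3 clusters of 2 (GENCODE release 29, GRCh38). MIR30E (chr1:40754355-40754446, plus strand) and MIR30C1 (chr1:40757284-40757372, plus strand) lie in an intron of NFYC, which encodes a subunit of the CCAAT-binding factor NF-Y, with 2837 bases between them. MIR30C2 (chr6:71376960-71377031, minus strand) and MIR30A (chr6:71403551-71403621, minus strand) lie in introns of the long non-coding RNA genes LINC00472 and AL136164.2, with 26519 bases between them. MIR30B and MIR30D lie on chromosome 8, with 4268 bases between them, in no annotated host gene. The counts themselves were made on another build and carry no positions.

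Depth was between 1739278 miRNA counts (Hep3B) and 5741567 (Huh7). These miRNA counts were 10.4% of all reads in Hep3B, 35.2% in Hep3B-C, then 54.1% in Huh7 and 37.8% in Huh7-C. Levels are given in TPM, counts per 1000000 total reads, which is the scale of the study, and also relative to the miRNA counts alone, because the share of miRNA reads moved the 2 scales apart. The labels were set against markers. The hepatocyte marker miR-122 was at 23.7 TPM in Hep3B, 9708 TPM in Hep3B-C, then 46077 TPM in Huh7 and 13515 TPM in Huh7-C, and the 3 hepatocyte markers (miR-122, miR-192 and miR-194) summed to between 10997 and 115636 TPM. The 6 blood cell markers summed to between 0.0648 and 74.9 TPM, with miR-144 and miR-150 at 0 in every library, and the highest sum, in Huh7, came from 773 counts of miR-451. The 4 mesenchymal markers summed to between 1.77 and 111 TPM, with miR-143 at 427, 1706, 33 and 13 of the 428, 1711, 51 and 19 counts in Hep3B, Hep3B-C, Huh7 and Huh7-C. The endothelial marker miR-126 was at 48.1 to 191 TPM. Their part in the miR-30 results was not tested. The identity of the lines was not checked, since no genotype was at hand, and the gap in miR-122 between Hep3B and Hep3B-C leaves the derivation of this pair resting on the labels. This bears on every change given for the Hep3B pair and on the model that pairs the libraries by parent line. Of other miRNAs, miR-200a, miR-200b and miR-429 had 916 to 9812 counts in both libraries labelled Hep3B or Hep3B-C and 0 to 2 in those labelled Huh7 or Huh7-C. Of the same family, miR-200c had 606 and 5085 counts in Hep3B and Hep3B-C, and 316 and 373 in Huh7 and Huh7-C. miR-141 had 27, 236, 32 and 21 counts in that order, so these 2 did not part the libraries by line in this way. In bulk RNA, fewer cells of a type and less RNA per cell cannot be told apart.

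miR-30d, miR-30e and miR-30a were abundant, and miR-30b and miR-30c were scarce. miR-30d was at 2999 TPM in Hep3B, 5504 in Hep3B-C, then 4905 in Huh7 and 5498 in Huh7-C, and it was the 8th, 15th, 12th and 11th most counted miRNA of these libraries. miR-30e was at 808 TPM in Hep3B, 1433 in Hep3B-C, then 23543 in Huh7 and 9989 in Huh7-C. miR-30a was at 1479, 2138, 7508 and 908 TPM in the same order. The level of miR-30d thus spanned less than that of miR-30e and miR-30a, whose highest library was Huh7.

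miR-30c was at 19.5 TPM in Hep3B, 43.6 in Hep3B-C, then 630.0 in Huh7 and 203 in Huh7-C. miR-30b was at 17.1, 16.97, 68.3 and 17.3 TPM in that order, on 287, 262, 725 and 185 counts. miR-30b was therefore at nearly the same level in 3 of the 4 libraries on this scale, and its counting intervals are the widest of the family. All 5 members were far above the level of 3 counts, taken as the smallest that the depth can show (0.179 to 0.282 TPM).

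**Figure D1:**
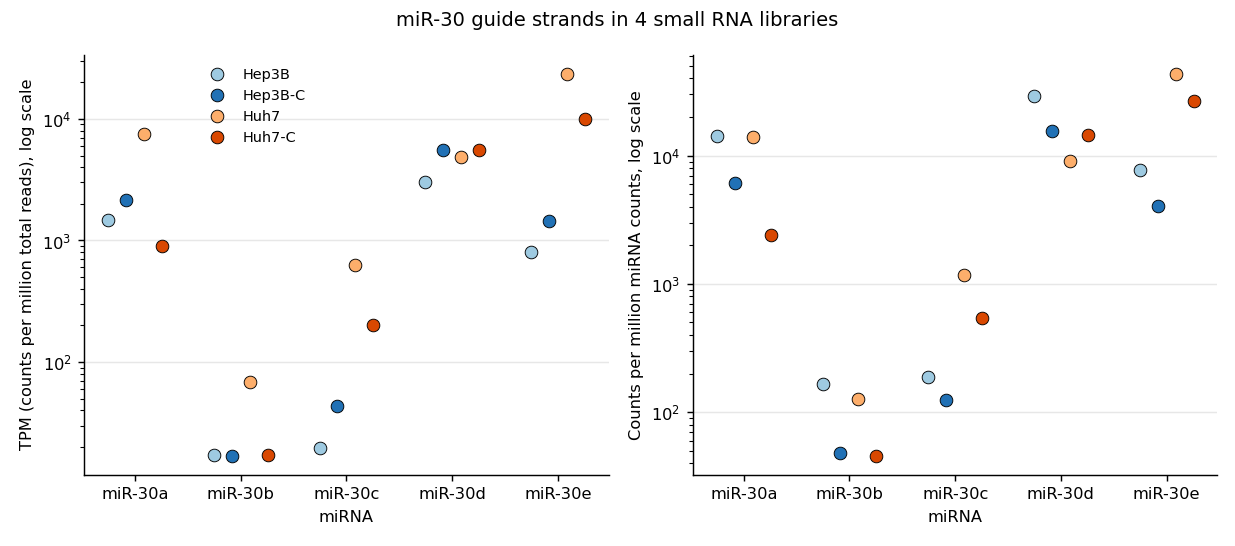
Level of each miR-30 guide strand in the 4 libraries, as TPM (left) and as counts per 1000000 miRNA counts (right), both on log axes, with 1 point per library. On the left miR-30d lies between 2999 and 5504 TPM, while miR-30e runs between 808 TPM (Hep3B) and 23543 TPM (Huh7); on the right miR-30a and miR-30b are lower in both HCSC libraries than in both HCC libraries.

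The 2 lines were led by different members, and this does not depend on the library size used. In Hep3B, miR-30d made up 56.3% of the miR-30 guide counts, miR-30a 27.8% (95% Clopper-Pearson confidence interval 27.5% to 28.1%) and miR-30e 15.2%. In Hep3B-C the order was the same, with 60.2%, 23.4% and 15.7%. In Huh7, miR-30e made up 64.2%, miR-30a 20.5% and miR-30d 13.4%.

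In Huh7-C, miR-30e was still the leading member at 60.1%, but miR-30d came next at 33.1% and miR-30a was down to 5.46% (5.36% to 5.57%). The largest shifts of make-up between an HCC library and its HCSC library were these of miR-30d and miR-30a in the Huh7 pair. miR-30c made up 0.367%, 0.477%, 1.72% and 1.22% of the family, and miR-30b 0.321%, 0.186%, 0.186% and 0.104%, in the order Hep3B, Hep3B-C, Huh7 and Huh7-C. Intervals here and below cover counting error only, and reads without molecular identifiers are not independent molecules.

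**Figure D2:**
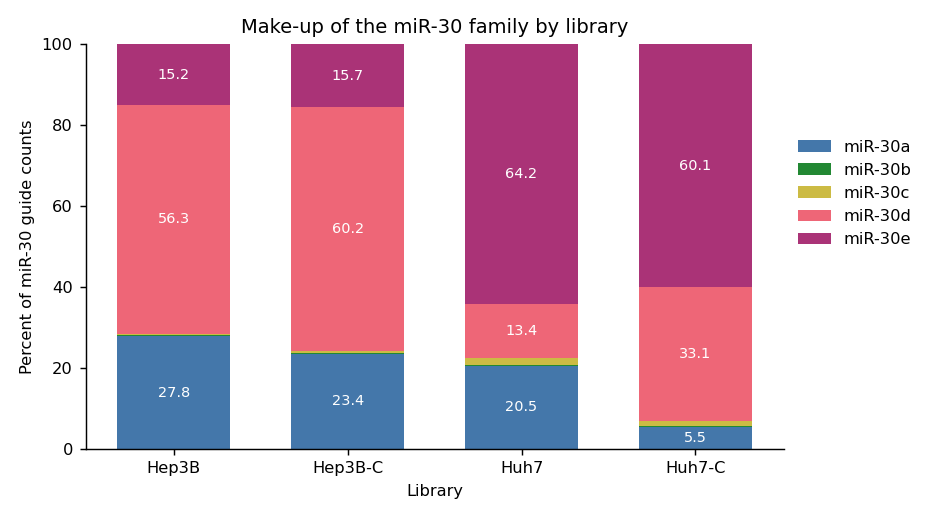
Share of each member in the miR-30 guide counts of a library (percent, stacked to 100). miR-30d is the largest block in Hep3B and Hep3B-C (56.3% and 60.2%), miR-30e in Huh7 and Huh7-C (64.2% and 60.1%), and the miR-30a block is smallest in Huh7-C (5.46%).

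Between Huh7 and Huh7-C, 4 of the 5 members were lower in the HCSC library, and miR-30d was not. miR-30a went from 7508 TPM in Huh7 to 908 TPM in Huh7-C, which is -3.05 as a log2 fold-change (95% interval from -3.08 to -3.02), or -2.53 per miRNA counts. miR-30b changed by -1.98 (-2.22 to -1.75) and miR-30c by -1.63 (-1.70 to -1.56). miR-30e changed by -1.24 per total reads and by -0.72 per miRNA counts, so it passed a 2-fold change on the first scale only. miR-30d changed by 0.16 and 0.68 on these scales. In the Audic and Claverie exact Poisson test of these libraries (absolute log2 fold-change of at least 1, adjusted p of at most 0.01), 4 members were called lower and 0 higher. Of all 772 miRNAs tested, 17.1% were called lower and 3.11% higher. Per miRNA counts 3 members were called lower, against 9.59% of all miRNAs, and 0 higher, against 7.25%.

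Between Hep3B and Hep3B-C the direction depended on the library size. Per total reads, miR-30c was at 19.5 TPM in Hep3B and 43.6 TPM in Hep3B-C. It thus changed by 1.16 on the log2 scale (0.96 to 1.35), and it was the 1 member called higher, with 0 called lower. In this pair 34.1% of the 834 miRNAs tested were called higher and 2.52% lower. The other members changed by 0.88 (miR-30d), 0.83 (miR-30e), 0.53 (miR-30a) and -0.011 (miR-30b). Per miRNA counts all 5 values were below 0, from -0.61 for miR-30c to -1.77 for miR-30b. On that scale miR-30a (-1.23) and miR-30b were called lower, and 0 members higher, against 13.4% and 5.64% of all miRNAs. With TMM library sizes or DESeq2 size factors 0 members were called higher and 1 lower, miR-30b (-1.42 and -1.19). Of the 834 miRNAs, 71 (TMM) and 96 (DESeq2) were called higher, and 76 and 59 lower.

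Set against the median of all miRNAs, which does not depend on the library size, 9 of the 10 changes from HCC to HCSC library were on the lower side. The median log2 fold-change per total reads was 1.42 in the Hep3B pair, over 475 miRNAs that reached 10 counts in a library, and -0.66 over 431 miRNAs in the Huh7 pair. Per miRNA counts the same medians were -0.34 and -0.15. Relative to these medians, miR-30a stood at -0.89 (Hep3B pair) and -2.38 (Huh7 pair) on the log2 scale. miR-30b stood at -1.43 and -1.32, miR-30c at -0.27 and -0.97, and miR-30e at -0.60 and -0.57. miR-30d stood at -0.55 for Hep3B-C against Hep3B and was on the higher side, at 0.83, for Huh7-C against Huh7. By construction 50% of the miRNAs lie below such a median.

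**Figure D3:**
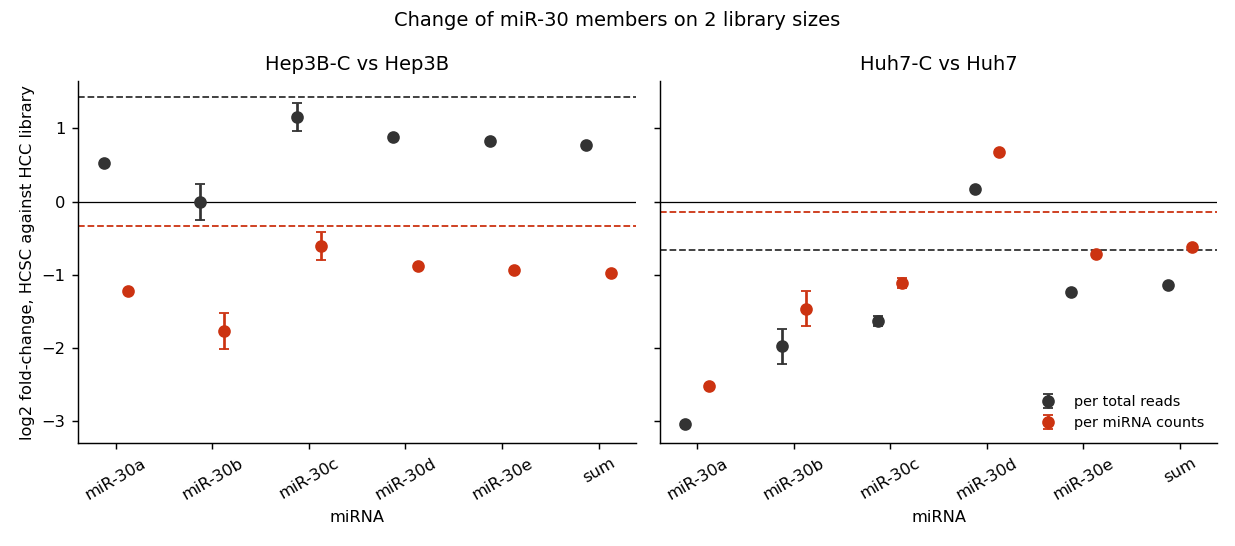
log2 fold-change of each member and of the family sum, HCSC against HCC library, per total reads (black) and per miRNA counts (red), with 95% counting intervals, which are mostly narrower than the points. Dashed lines are the medians of all miRNAs with at least 10 counts (1.42 and -0.34 on the left, -0.66 and -0.15 on the right), and every point but that of miR-30d in the Huh7 pair lies below the line of its colour.

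The sum of the 5 members followed its abundant members. It was at 5322 TPM in Hep3B, 9136 in Hep3B-C, then 36655 in Huh7 and 16616 in Huh7-C. These were 5.14%, 2.60%, 6.78% and 4.40% of the miRNA counts. The sum changed by 0.78 (0.77 to 0.79) from Hep3B to Hep3B-C and by -1.14 (-1.15 to -1.13) from Huh7 to Huh7-C per total reads, and by -0.98 and -0.62 per miRNA counts. The opposite directions of the first scale were thus not seen on the second.

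Over both lines together, the 2 HCC and the 2 HCSC libraries gave the only replication of the contrast. In counts per 1000000 miRNA counts, miR-30a was at 14270 in Hep3B and 13891 in Huh7, and at 6080 in Hep3B-C and 2405 in Huh7-C. miR-30b was at 165 and 126 in the HCC libraries and at 48.2 and 45.7 in the HCSC libraries. The 2 states did not overlap for these 2 members, against 15.3% of 443 miRNAs with that pattern in the lower direction. For miR-30c, miR-30d and miR-30e the states overlapped on this scale, and 4.97% of the miRNAs were higher in both HCSC libraries. In TPM the states did not overlap for miR-30d alone, which was higher in both HCSC libraries, as were 11.1% of the miRNAs, while 3.84% were lower in both.

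In edgeR's quasi-likelihood test with the parent line as a block, 0 members passed an adjusted p of 0.05, and 0 of all 443 miRNAs did (0%). The members had log2 fold-changes between -1.58 (miR-30a) and 0.20 (miR-30d) and adjusted p-values between 0.584 and 0.900 in edgeR. None of the 5 was under an unadjusted p of 0.05, as were 31 of all miRNAs. DESeq2 called 5 miRNAs and 0 members, with 1 member, miR-30a, under an unadjusted p of 0.05 (0.0498). This model had 1 residual degree of freedom, so a p above the threshold does not show that the members did not differ.

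Between the 2 parental lines, miR-30c and miR-30e were the members that differed most. miR-30c was at 19.5 TPM in Hep3B and 630.0 TPM in Huh7, a log2 difference of 5.01 (4.85 to 5.17), and of 2.63 per miRNA counts. miR-30e differed by 4.87 and by 2.48 on these scales. miR-30a differed by 2.34 and -0.039, miR-30b by 2.00 and -0.39, and miR-30d by 0.71 and -1.67, so their direction depended on the scale. In the exact Poisson test 4 members were called higher in Huh7 and 0 lower per total reads, against 34.1% and 9.18% of all miRNAs. Per miRNA counts miR-30c and miR-30e were called higher and miR-30d lower, against 10.1% and 30.1%.

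The 2 HCSC libraries, which are those of the pair comparisons above, differed in the same members. miR-30e was at 1433 TPM in Hep3B-C and 9989 TPM in Huh7-C (log2 difference 2.80, and 2.70 per miRNA counts), and miR-30c was at 43.6 and 203 TPM (2.22 and 2.12). miR-30a was lower in Huh7-C, by -1.24 and -1.34. The exact Poisson test called 2 members higher in Huh7-C and 1 lower on both scales. With TMM library sizes or DESeq2 size factors the lower call, miR-30a, was lost (-0.97 and -0.93). With either, 178 of the 868 miRNAs were called lower. Of all miRNAs, 14.4% were called higher and 23% lower per total reads, and 13.1% and 24.9% per miRNA counts. miR-30b (0.025) and miR-30d (-0.0015) were at nearly equal TPM in the 2 HCSC libraries.

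Ratios of 2 members in 1 library need no library size. miR-30a and miR-30d stood at a ratio of 0.493 in Hep3B, 0.389 in Hep3B-C, then 1.53 in Huh7 and 0.165 in Huh7-C. The log2 change of this ratio was -0.34 (-0.37 to -0.32) for the Hep3B pair, against -3.21 (-3.25 to -3.18) for the Huh7 pair. The ratio of miR-30c to miR-30e varied much less, at 0.0242, 0.0304, 0.0268 and 0.0204, while miR-30a to miR-30e went from 1.83 in Hep3B to 0.0909 in Huh7-C.

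The passenger strands of miR-30a and miR-30e took a larger part of their hairpins' counts in both HCSC libraries. miR-30e* had 5758 counts in Hep3B, 23904 in Hep3B-C, then 47968 in Huh7 and 41521 in Huh7-C. It made up 29.8% of both strands in Hep3B (29.2% to 30.5%), 51.9% in Hep3B-C (51.5% to 52.4%), 16.1% in Huh7 and 28.0% in Huh7-C. In Hep3B-C the strand named as passenger was thus counted more often than the guide. miR-30a* had 4636, 17276, 7409 and 1606 counts and made up 15.7%, 34.4%, 8.50% and 14.2% of both strands.

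The log2 ratio of guide to passenger changed by -1.35 for miR-30e and by -1.49 for miR-30a in the Hep3B pair, and by -1.02 and -0.83 in the Huh7 pair. Over the hairpins taken as background, 30 of 62 (48.4%) had a lower ratio in Hep3B-C than in Hep3B, with a median change of 0.03. The background did not hold every hairpin with both strands counted. In the Huh7 pair 21 of 60 (35%) had a lower ratio, with a median change of 0.43. Of the miR-30 hairpins in these counts, which leave out miR-30c, 2 of 4 and 3 of 4 were lower. The third in the Huh7 pair was miR-30b, at -0.97 (-1.72 to -0.19).

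miR-30d was counted almost only as guide, with 44, 45, 52 and 33 counts of miR-30d*, or 0.0529% to 0.0997% of both strands. Its ratio of guide to passenger was higher in both HCSC libraries, by 0.72 and 0.83. miR-30b* had 17, 10, 52 and 26 counts, and its change in the Hep3B pair was within counting error (0.63, interval -0.61 to 1.95). The 2 passenger strands of miR-30c together made up 31.1%, 42.5%, 14.5% and 10.03% of the miR-30c counts. Their part was thus larger in Hep3B-C than in Hep3B and smaller in Huh7-C than in Huh7.

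**Figure D4:**
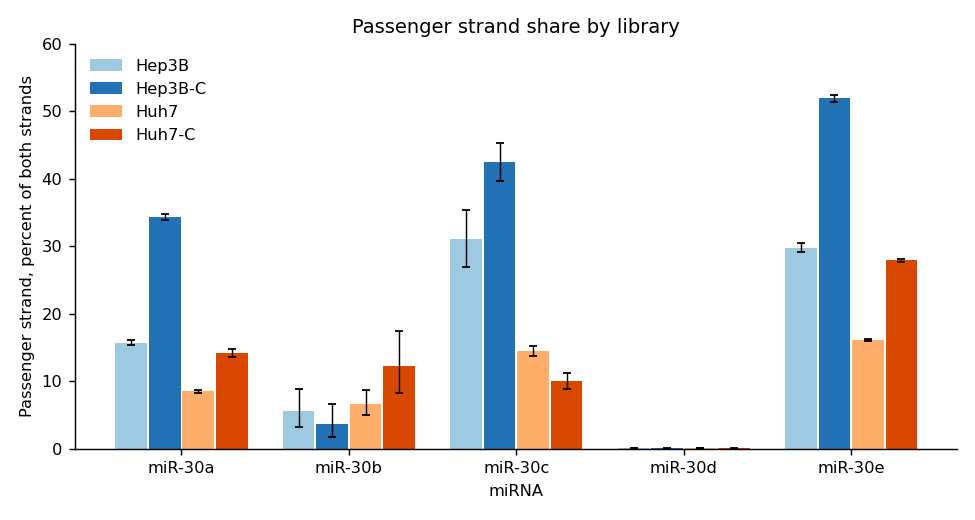
Passenger strand as a percent of both strands of each hairpin or, for miR-30c, of both hairpins, with 95% Clopper-Pearson intervals as error bars. The miR-30a and miR-30e bars are higher in each HCSC library than in its HCC library, up to 51.9% for miR-30e in Hep3B-C, while the miR-30d bars stay under 0.1%.

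Across the 4 libraries, members of 1 genomic cluster were not always nearest to each other. As a description over these libraries, the distance between 2 miRNAs was taken over their log2 TPM, each centred on its own mean, with a median of 3.53 over the 23005 pairs of the 215 miRNAs with a mean of at least 100 counts. miR-30c and miR-30e were the nearest members, at 0.42. The passenger strand of the miR-30c hairpin beside MIR30E, miR-30c-1*, was at 0.80 from miR-30c and 0.86 from miR-30e. Its mean was under 100 counts, with 8 in Hep3B, so it is not among the 215 and its distances carry more counting error. miR-30c-2*, whose hairpin lies beside MIR30A, was at 2.57 from miR-30c and 1.18 from miR-30a.

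The passenger strands of the 2 miR-30c hairpins were counted apart. miR-30c-1* had 8, 27, 144 and 87 counts and miR-30c-2* 140, 470, 989 and 156 counts in Hep3B, Hep3B-C, Huh7 and Huh7-C. The share of miR-30c-2* in these passenger counts was 94.6% (89.6% to 97.6%), 94.6% (92.2% to 96.4%), 87.3% (85.2% to 89.2%) and 64.2% (57.8% to 70.2%). miR-30c-2* was thus the larger part in every library, and its share was lowest in Huh7-C. How much passenger strand each hairpin keeps was not measured, so these shares do not give the part of each hairpin in the miR-30c guide. miR-30b and miR-30d, neighbours on chromosome 8, were at a distance of 1.77, and miR-30a and miR-30b, which share no cluster, at 0.96. The guide and passenger strand of 1 hairpin were as far apart for miR-30e (1.77) and miR-30a (1.80). They were nearer for miR-30b (1.32) and miR-30d (0.79), whose passenger strands had only 10 to 52 counts. A distance of 1.77 therefore does not set the chromosome 8 neighbours apart from strands of 1 hairpin.

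**Figure D5:**
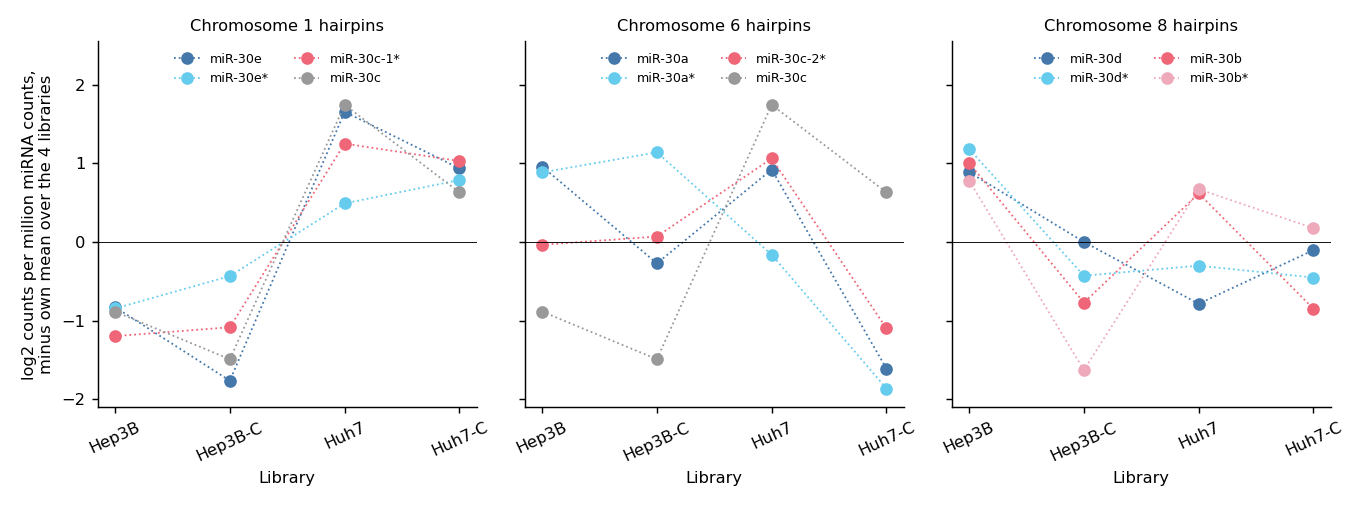
Guide and passenger strands by genomic cluster, as log2 counts per 1000000 miRNA counts minus the strand's own mean over the 4 libraries, with 1 point per library; miR-30c is drawn in grey in both clusters that encode it. The miR-30c points lie near those of miR-30e and miR-30c-1* (left) and apart from those of miR-30a and miR-30c-2* (middle), and miR-30b and miR-30d part in Huh7 (right). Dotted lines join points of a strand and carry no order.

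Other miRNA families were set beside miR-30. The let-7 family with miR-98, known for repressing LIN28 and RAS genes, summed to 181101 counts in Hep3B, 443526 in Hep3B-C, then 66724 in Huh7 and 76343 in Huh7-C. The ratio of the miR-30 sum to this sum was 0.493, 0.318, 5.84 and 2.33, a log2 change of -0.63 for the Hep3B pair and -1.32 for the other. Of its 9 members, 3 were called higher in Hep3B-C and 0 lower, and 0 were called higher in Huh7-C and 1 lower, per total reads. Of all miRNAs, 34.1% were called higher and 2.52% lower in Hep3B-C, against 3.11% and 17.1% in Huh7-C. Per miRNA counts the let-7 calls turned to 0 higher and 5 lower in Hep3B-C, and to 1 higher and 0 lower in Huh7-C. On that scale 5.64% of all miRNAs were called higher and 13.4% lower in Hep3B-C, against 7.25% and 9.59% in Huh7-C. The range per total reads was from -0.35 (let-7g) to 1.86 (let-7c) for the Hep3B pair, and from -1.31 (let-7e) to 1.25 (let-7i, on 5 and 12 counts) in the Huh7 pair.

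The miR-29 family, known for targeting collagens, summed to 2105, 1271, 13255 and 2122 counts. The ratio of the miR-30 sum to it was 42.4 in Hep3B, 111 in Hep3B-C, then 29.4 in Huh7 and 83.9 in Huh7-C, a log2 change of 1.39 and 1.51. The miR-30 sum was therefore higher against miR-29 in both HCSC libraries and lower against let-7 in both, although with medians over members the change against let-7 in the Hep3B pair was 0.32. Of the 3 miR-29 members, 1 was called lower in Hep3B-C and 3 in Huh7-C, with 0 higher, per total reads, against 2.52% and 17.1% of all miRNAs called lower. Per miRNA counts 3 were called lower in Hep3B-C and 2 in Huh7-C, against 13.4% and 9.59%. Their log2 fold-changes per total reads ran from -1.48 (miR-29c) to 0.09 (miR-29b) and from -2.69 (miR-29a) to -1.21 (miR-29c).

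The miR-200 family, which like miR-30 is known for the epithelial state through its targets ZEB1 and ZEB2, separated the lines more than the states. It summed to 6772 counts in Hep3B, 18620 in Hep3B-C, then 350 in Huh7 and 396 in Huh7-C. The ratio of the miR-30 sum to the miR-200 sum was 13.2, 7.58, 1112 and 450, a log2 change of -0.80 and -1.31. Of the 5 miR-200 members, 3 were called higher in Hep3B-C and 0 lower per total reads, where 34.1% of all miRNAs were called higher and 2.52% lower. The log2 fold-changes of all 5 ran from 0.32 (miR-429) to 3.25 (miR-141). Per miRNA counts 2 were called higher and 1 lower, against 5.64% and 13.4% of all miRNAs. On that scale the changes ran from -1.44 (miR-429) to 1.49 (miR-141), with the sum at -0.18. In the Huh7 pair 4 members had a count and 0 were called in either direction by the exact Poisson test. Per total reads 3.11% of all miRNAs were called higher and 17.1% lower in that pair. miR-200a had 2 counts in Huh7 and 0 in Huh7-C, miR-200b 0 and 2, and miR-429 0 and 0, so no fold is given.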

How the data were processed

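Small RNA libraries of Hep3B, Hep3B-C, Huh7 and Huh7-C (1 each) were analysed. Per the study's methods, the authors filtered out contaminants, redundant reads and those under 18 nt, mapped the rest with SOAP to NCBI Build 36.1, set aside other small RNAs and searched miRBase release 17. The authors deposited whole-number counts per miRNA, which were taken here as raw read counts. Whether the filter on redundant reads collapsed identical reads before counting is not given in the sources used here.

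From these counts, TPM was computed with the total reads given by the study. A pair of libraries was compared by the Audic and Claverie exact Poisson test (2-sided) over all miRNAs counted at least 1 time in them, with Benjamini-Hochberg adjustment (TPM of 0 set to 0.001). It compares libraries, not conditions, and holds counting noise only. Both lines were fitted by edgeR's quasi-likelihood test (TMM, parent line as replicate block, at least 10 counts in at least 2 libraries). The pairing comes from the design, since each HCSC line derives from the HCC line of its name. Intervals of log2 fold-changes are exact binomial, and those of ratios are exact conditional or, for large counts, normal on the log scale.

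The named miRNAs were all members, their passenger strands, the largest and smallest change of the 3 other families, and the nearest patterns among miRNAs with a mean of at least 100 counts. The cell type markers, the miR-200 members and a miRNA sharing a passenger seed were named as well. Members, lists and rules were chosen with earlier results of these data known. The changes relative to the median of all miRNAs and the overlap of the 2 states were added after the values were seen. Alternatives were other library sizes, tests, filters and thresholds, and each library left out in turn. Tests were run on simulated data, the pair test with counting noise alone and the edgeR fit with no difference between lines. Such data do not show how the tests perform on these libraries. Python 3.11.15 (scipy 1.17.1, numpy 2.4.6, pandas 2.3.3), R 4.3.3, edgeR 4.0.16 and DESeq2 1.42.0 were used.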

Additional observations from a re-analysis of the deposited data

Results flagged for a closer look

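The change from HCC to HCSC library went in opposite directions in the 2 lines for several values, and none of these differences was tested, since each line had 1 library per state. Per total reads, the log2 change in the Hep3B pair exceeded that in the Huh7 pair by 3.58 for miR-30a, by 2.79 for miR-30c, by 2.06 for miR-30e and by 1.92 for the sum of the 5 members. Per miRNA counts these 4 changes were below 0 in both pairs. On that scale miR-30d went the opposite ways instead, with a change in the Hep3B pair of -0.89 and in the Huh7 pair of 0.68 (difference -1.57). The ratio of miR-30c to its passenger strands, which needs no library size, changed by -0.71 in the Hep3B pair and by 0.60 in the Huh7 pair (difference -1.31).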

How the results depend on the processing

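With 1 library per condition, the choice of library size limits these results, and the variation between cultures is not measured. The sum of the 5 members changed in the Hep3B pair by -0.98 (total miRNA counts), -0.63 (TMM), -0.40 (DESeq2 size factors) and 0.99 (passenger strands added), in the Huh7 pair by -0.62, -0.83, -0.57 and -1.02, between the parental lines by 0.40, 1.32, 1.34 and 2.82, and between the HCSC libraries by 0.76, 1.13, 1.17 and 0.80. With total miRNA counts, TMM and DESeq2 size factors, the members of the Hep3B pair turned to -1.23, -0.88 and -0.65 (miR-30a), -0.61, -0.26 and -0.022 (miR-30c), -0.89, -0.54 and -0.30 (miR-30d) and -0.94, -0.59 and -0.35 (miR-30e). Between the parental lines miR-30d turned to -1.67, -0.75 and -0.74, and with total miRNA counts miR-30a to -0.039 and miR-30b to -0.39. Between the HCSC libraries miR-30b turned to -0.077 with total miRNA counts, and miR-30d to 0.27 (TMM) and 0.30 (DESeq2).

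Members called in the Hep3B pair were 2 with total miRNA counts, 4 by adjusted p alone and 0 when a biological coefficient of variation of 0.4 was assumed (edgeR exact test). Of the 834 miRNAs of this pair, 47 were called higher and 112 lower with total miRNA counts. By adjusted p alone these were 339 and 29, and with the assumed variation 25 and 0. TMM and DESeq2 size factors kept 1 called, but lower and another member (miR-30b, -1.42 and -1.19). Over all miRNAs of this pair TMM called 71 higher and 76 lower, and DESeq2 size factors 96 and 59. With the assumed variation 0 members were called in the Huh7 pair, 2 between the parental lines (miR-30c and miR-30e) and 0 between the HCSC libraries. Over all miRNAs that setting called 5 higher and 10 lower of 772 in the Huh7 pair. It called 109 and 38 of 828 between the parental lines, and 31 and 82 of 868 between the HCSC libraries. TMM and DESeq2 size factors left 2 called between the parental lines and 2 between the HCSC libraries, where the lower call of miR-30a was lost. These settings rescale the libraries or widen the assumed variation, and no other cause was tested.

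Over both lines, edgeR called 0 members with the parent line as replicate block, 0 with no replicate block, and 0 when any library was left out (0 to 0, without the block, where a state left with 1 library is assumed to vary like the other). With all libraries, the count filter and TMM, the lowest adjusted p of all miRNAs in edgeR was 0.399 with the block and 0.998 without it. With the block but no count filter the lowest was 0.172, and 0 members were called. In that edgeR fit miR-30a had an unadjusted p of 0.0203 and an adjusted p of 0.736.

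With passenger strands added, the shares in Hep3B, Hep3B-C, Huh7 and Huh7-C moved to 29.5%, 27.5%, 19.5% and 5.12% for miR-30a, to 50.4%, 46.5%, 11.7% and 26.6% for miR-30d and to 19.3%, 25.2%, 66.8% and 67.1% for miR-30e. They moved to 0.476%, 0.640% and, in Huh7-C, 1.09% for miR-30c, and to 0.149% for miR-30b in Hep3B-C. miR-30a and miR-30e counted as 1 made up 43.0%, 39.1%, 84.7% and 65.6%. With medians of members in place of sums, the changes relative to let-7 were 0.32 and -1.62 in the Hep3B and Huh7 pair, to miR-29 1.51 and 0.95, and to miR-200 -0.64 in the Hep3B pair.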

Other observations

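Among 207 miRNAs with a mean of at least 100 counts, the pattern over the 4 libraries nearest to that of the miR-30 sum was that of miR-1307, at a distance of 0.24 on the log2 scale, followed by miR-576-3p (0.26), miR-186 (0.34), miR-185 (0.40) and miR-192 (0.51). miR-1307 was at 71.9 TPM in Hep3B, 129 in Hep3B-C, then 445 in Huh7 and 253 in Huh7-C. The nearest to each member was miR-27b* for miR-30a (0.49), miR-1285 for miR-30b (0.40), miR-374b for miR-30c (0.29), miR-589 for miR-30d (0.12) and miR-374a* for miR-30e (0.45). miR-589 was at 26.3, 53.9, 45.0 and 49.3 TPM in the same order of libraries. The library size is the same for both miRNAs of a distance and cancels in it. These distances rest on 4 libraries, and they are a description without a test.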
